A study of Mus musculus with 10 samples.

Results

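DNA methylation of the olfactory receptor genes was described in spermatogonia from male mouse pups aged 6 days. The family was taken as the protein-coding genes whose mm10 RefSeq symbol starts with Olfr, each with its span and 1 kb on either side, called its window below. Of the cytosines read 5 or more times in each library, 5676 lay in such a window, in 3830 CpGs, out of 6745376 in the whole table (0.0842%). The family had 1110 of 21887 protein-coding genes. Both libraries came from LT-11B6 mice, which carry an Id4-eGfp transgene on a C57BL/6 background, and from testis cells positive for this reporter, a marker of spermatogonia with stem cell potential. The TSPAN8-high fraction held the reporter-positive cells that bound most antibody to the surface tetraspanin TSPAN8, and the TSPAN8-low fraction those that bound least. Reduced-representation bisulfite sequencing (RRBS), which reads methylation on restriction fragments, was run on 300 ng of DNA from 5 pooled sorts of each fraction. Each fraction thus had 1 library and no replicate. All tests below compare the 2 libraries, not the conditions, and the intervals cover counting error only. The other 8 of the 10 samples, from chromatin work, were not analysed here. The libraries hold no RNA, so the labelled cell type was not checked against expression markers.

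Olfactory receptors are G protein-coupled receptors that detect odorants, and they form the largest gene family of the mouse. Their coding sequence lies in a single exon, most of them sit in gene clusters, and a mature olfactory neuron expresses a single receptor allele while the remaining copies lie in silent chromatin. Class I receptors, related to those of fish, occupy a cluster on chromosome 7 that encloses the beta-globin genes, and class II receptors are spread over many chromosomes. A few receptors are also expressed outside the nose, among them Olfr16 (MOR23), which is known from testis and sperm. DNA methylation at CpGs is usually high in CpG-poor silent DNA and absent from CpG-dense promoters.

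In both fractions the receptor genes were mostly methylated, at a mean of 80.9% in TSPAN8-high against 81.2% in TSPAN8-low. Lower levels were found at single genes and in some gene clusters. Short unmethylated stretches lay in or beside 9 genes. In 2 receptor clusters, on chromosome 9 and on chromosome 2, most cytosines with few measured CpGs nearby had a mean level over both libraries between 20% and 80%. Of 250 receptor windows tested, 4 were higher and 4 lower in TSPAN8-high by Fisher's exact test (3.20%, against 1.24% of all protein-coding windows), and 1 of the 8 was still called with all read numbers halved.

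Receptor promoters hold few CpGs, which limits what can be measured there. Over the 300 bases from 250 before to 50 after the start (RefSeq, GRCm38.p6), 948 promoters of 944 receptor genes had a median of 1 CpG, against 13 over all 21263 promoters of protein-coding genes. No CpG was present in 33.3% of receptor promoters and in 4.63% of all. At 218 receptor promoters at least 1 CpG was measured, and at 13 at least 3. Of these 13, the 3 least and the 2 most methylated are shown 5′ to 3′ on the strand of the gene, with the measured CpGs in capitals, so that the low promoters can be set beside the high ones. They are Olfr750 (chr14:51071393-51071692, minus strand), Olfr283 (chr15:98379148-98379447, minus strand), Olfr323 (chr11:58625995-58626294, minus strand), Olfr1272 (chr2:90282524-90282823, minus strand) and Olfr224 (chr11:58570519-58570818, minus strand).
Olfr750: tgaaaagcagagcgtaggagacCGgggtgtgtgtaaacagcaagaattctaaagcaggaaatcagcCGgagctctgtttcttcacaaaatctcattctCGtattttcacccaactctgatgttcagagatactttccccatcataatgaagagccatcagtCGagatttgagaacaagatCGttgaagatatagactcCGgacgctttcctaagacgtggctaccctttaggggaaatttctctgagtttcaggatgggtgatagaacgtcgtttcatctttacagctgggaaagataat
Olfr283: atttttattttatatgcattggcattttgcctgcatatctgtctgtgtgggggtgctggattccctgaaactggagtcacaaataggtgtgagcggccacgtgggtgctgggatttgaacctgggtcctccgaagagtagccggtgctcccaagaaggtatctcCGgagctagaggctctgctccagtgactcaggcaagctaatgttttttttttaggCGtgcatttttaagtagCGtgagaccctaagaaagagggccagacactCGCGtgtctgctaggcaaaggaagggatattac
Olfr323: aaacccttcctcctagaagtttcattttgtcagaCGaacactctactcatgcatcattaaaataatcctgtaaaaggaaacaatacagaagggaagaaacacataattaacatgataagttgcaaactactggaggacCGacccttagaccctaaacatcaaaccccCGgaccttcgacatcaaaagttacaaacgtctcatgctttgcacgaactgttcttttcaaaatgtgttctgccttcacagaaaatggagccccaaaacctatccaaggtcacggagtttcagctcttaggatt
Olfr1272: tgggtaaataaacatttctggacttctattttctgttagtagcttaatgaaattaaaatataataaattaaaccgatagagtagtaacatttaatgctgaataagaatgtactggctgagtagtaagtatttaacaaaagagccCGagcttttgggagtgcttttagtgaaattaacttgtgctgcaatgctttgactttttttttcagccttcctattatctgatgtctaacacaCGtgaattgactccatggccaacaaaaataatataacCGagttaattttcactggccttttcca
Olfr224: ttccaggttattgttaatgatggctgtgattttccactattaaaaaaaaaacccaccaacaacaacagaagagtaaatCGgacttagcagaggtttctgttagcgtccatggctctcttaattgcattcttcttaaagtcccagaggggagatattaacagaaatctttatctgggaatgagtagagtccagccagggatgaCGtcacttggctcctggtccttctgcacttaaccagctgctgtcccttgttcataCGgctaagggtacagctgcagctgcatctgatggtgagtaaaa

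At Olfr750, 6 of the 11 CpGs were measured, and the 10 cytosines averaged 6.30% in TSPAN8-high against 2.20% in TSPAN8-low, from 10 of 165 methylated reads in TSPAN8-high and 4 of 128 in TSPAN8-low. Each of these cytosines lay at or below 19% in TSPAN8-high and at or below 12% in TSPAN8-low. Olfr283 had 5 of 9 CpGs measured and averaged 3.40% in TSPAN8-high (1 of 35 reads) against 19.4% in TSPAN8-low (6 of 38 reads). Its cytosines ran from 0% to 17% in TSPAN8-high and from 0% to 50% in TSPAN8-low. Olfr323 averaged 14.8% in TSPAN8-high against 9.5% in TSPAN8-low over 4 cytosines. The 3 measured CpGs of Olfr1272 were at 96.5% in TSPAN8-high against 91.8% in TSPAN8-low, and those of Olfr224 at 98.0% in TSPAN8-high against 92.8% in TSPAN8-low. Of all 13 promoters, 3 averaged below 20% in both libraries, 6 above 80% in both, and 4 neither. These 4 were Olfr282, Olfr212, Olfr1487 and Olfr1495. Olfr282 averaged 29.0% in TSPAN8-high against 9% in TSPAN8-low over 4 cytosines, and Olfr212 16.7% in TSPAN8-high against 23.1% in TSPAN8-low over 11 cytosines, while Olfr1487 averaged 39.2% in TSPAN8-high against 33.3% in TSPAN8-low and Olfr1495 16.7% in TSPAN8-high against 48.0% in TSPAN8-low.

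A motif known from receptor choice in olfactory neurons was counted in the same promoters. The homeodomain core TAATTA, bound by factors such as LHX2 and EMX2 and read the same on both strands, was present in 18.6% of receptor promoters and in 4.53% of all promoters. This core holds only A and T, and the promoter sets were not matched for base composition. Whether the contrast goes beyond base composition was not tested. Most receptor gene models here hold coding sequence with little or no untranslated part, as 78.7% of the spans had a length divisible by 3. The annotated start is therefore often the start of the coding sequence, and the sequences shown may not reach the transcription start.

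Coverage of the family was sparse. At least 1 CpG was measured in 956 windows (86.1%), 154 had none, 706 had 1 to 4 CpGs, and 250 (22.5%) had 5 or more. The median was 2 CpGs per receptor window, against 74 per window of other protein-coding genes, of which 91.1% reached 5. Vomeronasal receptor genes (Vmn), a separate family of chemoreceptors, had 5 or more CpGs in 127 of 355 windows (35.8%). Depth per cytosine was alike, with a median of 10 reads in each library for receptor windows and for the whole table. The table lists only cytosines with 5 or more reads, so a receptor without a value was not measured, whatever its methylation. The sources used here do not say how reads that match several near-identical receptor genes or pseudogenes were handled, so values of such copies are uncertain.

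The mean level over receptor cytosines was 80.9% in TSPAN8-high against 81.2% in TSPAN8-low, which is -0.276 percentage points. With reads pooled, 81.2% of 66676 reads were methylated in TSPAN8-high against 81.5% of 67045 in TSPAN8-low, and the difference of -0.348 had a 95% Newcombe interval of -0.766 to 0.0693. This interval includes 0, and over the whole table the mean difference was -0.120, at levels of 74.3% in TSPAN8-high against 74.4% in TSPAN8-low. Levels above 80% in both libraries were found at 60.7% of receptor cytosines, close to the 60.5% in other protein-coding windows. Levels below 20% in both were found at 5.81%, against 26.3% in other coding windows. The remaining 33.5% of receptor cytosines were neither below 20% nor above 80% in both libraries, against 13.2% in other coding windows. Vomeronasal windows averaged 73.1% in TSPAN8-high against 73.5% in TSPAN8-low. These contrasts between gene sets are descriptions and were not tested.

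**Figure D1:**
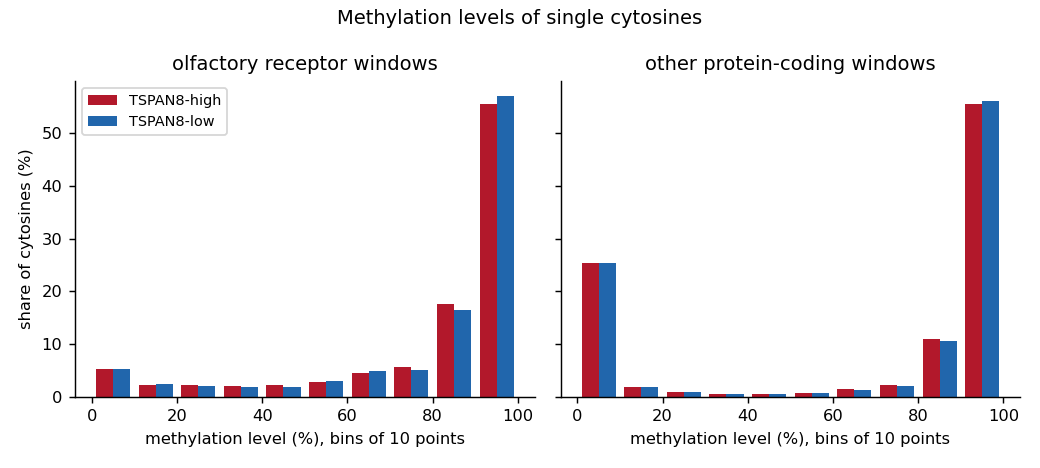
Share of cytosines (%) in bins of 10 percentage points of methylation level, in windows of olfactory receptor genes and of other protein-coding genes, for TSPAN8-high (red, left bar) and TSPAN8-low (blue, right bar). The lowest bin holds 5.18% of receptor cytosines in TSPAN8-high against 5.21% in TSPAN8-low, while other genes have 25.4% there in each library, and both libraries have the same shape.

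Levels differed with the number of listed CpGs nearby. Only measured CpGs are counted, so sites called sparse below can have further, unmeasured CpGs around them. Of receptor cytosines, 83.2% had at most 2 listed CpGs in the surrounding 200 bp, against 50.4% in other coding windows, and only 0.493% had 10 or more, against 14.5%. Sparse receptor cytosines averaged 85.1% in TSPAN8-high against 85.3% in TSPAN8-low, while those of other coding windows averaged 90.3% in TSPAN8-high against 90.4% in TSPAN8-low. With 3 to 9 listed CpGs the receptor level was 61.9% in TSPAN8-high against 62.6% in TSPAN8-low, and that of other coding windows 63.9% in TSPAN8-high against 64.0% in TSPAN8-low. The 28 receptor cytosines with 10 or more listed CpGs averaged 2.64% in TSPAN8-high against 0.964% in TSPAN8-low, and every one was below 20% in both. They lay in only 16 CpGs. A stretch of 11 CpGs in Olfr687, described below, had a mean of 10.3 listed CpGs, so the value describes few places. Partly methylated sites, with a mean over both libraries from 20% to 80%, made up 18.9% of sparse receptor cytosines, 37.4% of vomeronasal ones, 5.98% in other coding windows and 9.36% in the whole table.

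Position along the gene was then compared. Cytosines within the gene span averaged 77.7% in TSPAN8-high against 77.9% in TSPAN8-low, and those in the 1-kb flanks 83.3% in TSPAN8-high against 83.7% in TSPAN8-low. Other coding genes had the reverse order, with spans at 71.1% in TSPAN8-high against 71.2% in TSPAN8-low and flanks at 24.7% in TSPAN8-high against 24.6% in TSPAN8-low. Where the strand was known, the kilobase before the receptor start was at 82.7% in TSPAN8-high against 82.9% in TSPAN8-low, from 1327 cytosines of 515 genes. The last 250 bp before the start, in genes with a span under 1500 bp, were at 80.7% in TSPAN8-high against 81.2% in TSPAN8-low, so the annotated start itself was methylated in both. The lowest levels lay inside the coding part, from 500 to 749 bp after the start. There 191 cytosines of 86 genes averaged 64.3% in TSPAN8-high against 63.5% in TSPAN8-low, and 22% of them were below 20% in both. Genes were not weighted equally, and unmethylated stretches of Olfr94 and Olfr314, described below, reach into these 250 bp. How far the dip rests on a few genes was not tested. Those 250 bp also had the most listed CpGs, with a mean of 2.74 per 200 bp against 1.56 in the outermost bin before the start. Among sparse cytosines alone the same bin was at 77.3% in TSPAN8-high against 76.9% in TSPAN8-low, and the other 11 bins ran from 80.8% to 89.0%.

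**Figure D2:**
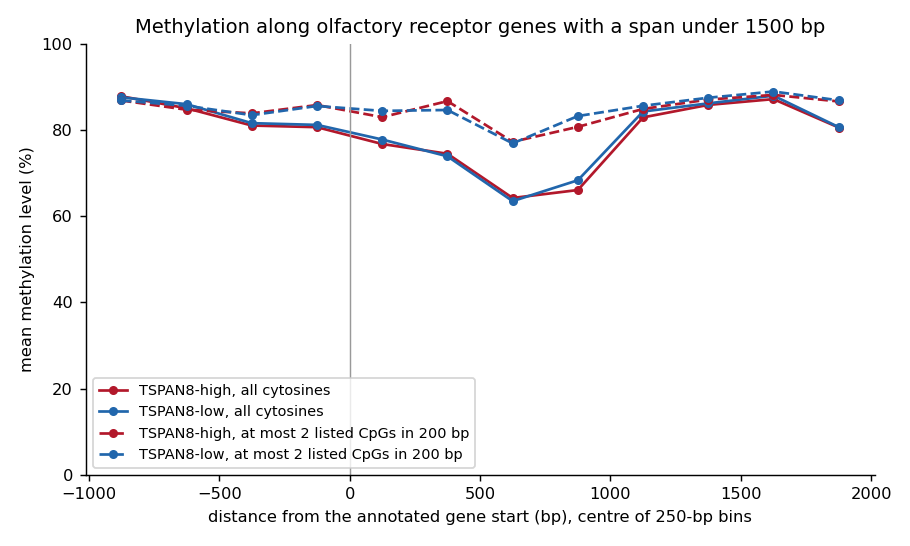
Mean methylation level (%) in 250-bp bins of distance (bp) from the annotated start of receptor genes with a span under 1500 bp, for TSPAN8-high (red) and TSPAN8-low (blue), over all cytosines (solid) and over those with at most 2 listed CpGs in 200 bp (dashed). The solid lines dip to 64.3% in TSPAN8-high against 63.5% in TSPAN8-low between 500 and 749 bp, and the dashed lines dip less.

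Receptor clusters, defined as genes less than 1 Mb apart, differed among themselves far more than the fractions did. To limit the part of listed density, the 23 clusters with at least 50 sparse cytosines in receptor windows were compared at sparse cytosines. Their levels ran from 55.8% to 95%, while the fractions differed within a cluster by a median of 1.25 percentage points and by at most 4.84. The lowest was the cluster of 35 genes on chromosome 9 (chr9:18754692-20336094), at 58.7% in TSPAN8-high against 55.8% in TSPAN8-low over 157 cytosines. There 59.9% of the sparse cytosines were partly methylated. Cytosines between its receptor windows were at 62.3% in TSPAN8-high against 61.8% in TSPAN8-low (1381 cytosines), whereas those up to 1 Mb outside the cluster were at 83.5% in TSPAN8-high against 83.4% in TSPAN8-low. The lower level was thus found between the genes as well as at them.

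The cluster of 28 genes on chromosome 2 (chr2:36376778-37332732) came next, at 66.8% in TSPAN8-high against 68.4% in TSPAN8-low over 113 sparse cytosines. Between its genes the levels were 61.4% in TSPAN8-high against 60.9% in TSPAN8-low, and outside it 90.1% in TSPAN8-high against 90.4% in TSPAN8-low. These were the 2 clusters below 70% in both libraries. On chromosome 16 a cluster of 25 genes (chr16:58760152-59362240) was at 76.5% in TSPAN8-high against 74.5% in TSPAN8-low, while the DNA outside was at 89.4% in TSPAN8-high against 89.8% in TSPAN8-low. The cluster of 30 genes on chromosome 11 (chr11:73350859-74365609) was at 85.0% in TSPAN8-high against 81.9% in TSPAN8-low in its receptor windows but at 70.5% in TSPAN8-high against 70.8% in TSPAN8-low between them. The largest cluster, 222 genes on chromosome 2, was at 87.2% in TSPAN8-high against 87.3% in TSPAN8-low, and 5 clusters were above 90% in both libraries.

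Over the 23 clusters, the level in receptor windows and the level between them went together, with a Pearson r of 0.898 (TSPAN8-high) and 0.895 (TSPAN8-low); the points share libraries and neighbouring DNA. The surroundings were not always higher: they exceeded the receptor windows in 13 of 23 clusters in TSPAN8-high and in 12 in TSPAN8-low. The 46 genes on chromosome 17, which adjoin the major histocompatibility complex, were at 77.8% in TSPAN8-high against 79.0% in TSPAN8-low, with 68.6% in TSPAN8-high against 68.7% in TSPAN8-low outside. Reads per sparse cytosine had a median of 10 in each library both inside and outside the chromosome 9 cluster. With at least 10 reads in both libraries that cluster was at 62.4% in TSPAN8-high against 61.0% in TSPAN8-low, and the chromosome 2 cluster at 68.0% in TSPAN8-high against 66.0% in TSPAN8-low. The clusters named here were chosen after their values were seen, and no test was run on them.

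**Figure D3:**
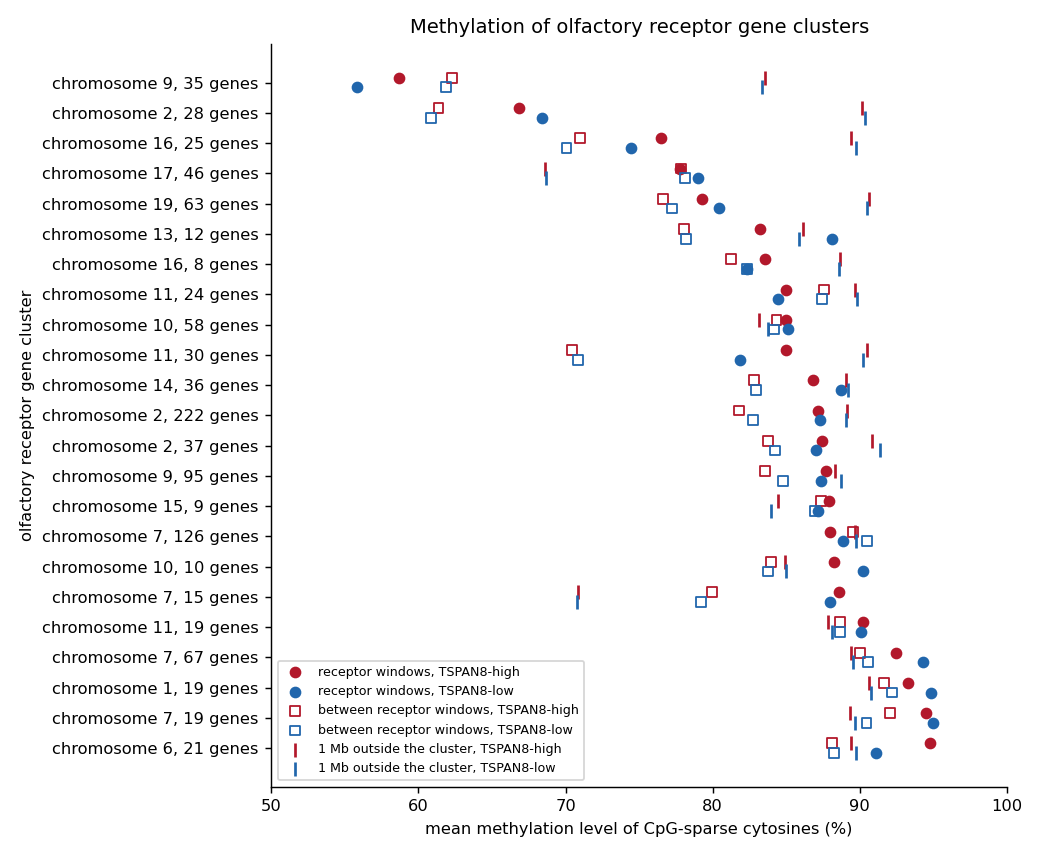
Mean methylation level (%) of cytosines with at most 2 listed CpGs in 200 bp, for 23 olfactory receptor gene clusters (rows, named by chromosome and number of genes), in TSPAN8-high (red, upper) and TSPAN8-low (blue, lower). Filled circles are receptor windows, open squares the DNA between them and bars the DNA up to 1 Mb outside on either side. The horizontal axis starts at 50%. In the top 3 rows circles and squares lie well left of the bars in both libraries.

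Class I receptors were compared with the rest by the cluster that encloses the beta-globin genes. In that cluster of 126 genes, at least 110 had a measured cytosine, as a cytosine shared by receptor windows was counted for a single gene. Its 827 cytosines averaged 83.2% in TSPAN8-high against 84.1% in TSPAN8-low. All other receptor genes averaged 80.5% in TSPAN8-high against 80.7% in TSPAN8-low. The median window level over both libraries was 93.4% for 41 class I windows and 89.3% for 209 others. By mean and median the class I genes were thus as highly methylated as the others or slightly more. Their share of cytosines below 20% in both libraries was also larger (7.74% against 5.49% in the others), as was that above 80% in both (68.3% against 59.4%). These contrasts were not tested.

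Single receptors were described over the 250 windows with 5 or more CpGs. The mean over windows was 79.6 ± 23.1% in TSPAN8-high against 79.6 ± 22.9% in TSPAN8-low (SD over windows, not replicates). Averaged over both libraries, 169 windows (67.6%) were above 80%, 73 (29.2%) from 20% to 80%, and 8 (3.20%) below 20%. Of other coding windows 25.5% were above 80%, and of vomeronasal windows 48.0%.

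The 8 lowest windows were low in both fractions. Olfr1344 (chromosome 7) averaged 2.13% in TSPAN8-high against 4.27% in TSPAN8-low over 12 CpGs. Olfr279 (chromosome 15) had 0 of 158 reads methylated in TSPAN8-high, which allows up to 1.90%, and 8 of 150 in TSPAN8-low (5.33%). A read over several CpGs is counted at each, so this limit can be too low. The difference of -5.33 points passed Fisher's exact test (adjusted p = 0.0218) below the minimum of 10 points. In the gene span, with 1 CpG per 100 bp and with reads halved it did not (Fisher's exact test, adjusted p = 0.0941, 0.331 and 0.628). Olfr94 (chromosome 17) had the most data of the 8, with 27 CpGs, and averaged 6.86% in TSPAN8-high (372 reads) against 6.14% in TSPAN8-low (561 reads). Its window overlaps that of Ubd, a ubiquitin-like modifier gene. Olfr658, a gene of the class I cluster whose window overlaps the pseudogene Usp17le-ps, averaged 9% in TSPAN8-high against 8.08% in TSPAN8-low, but 7.89% of pooled reads in TSPAN8-high against 11.1% in TSPAN8-low (Fisher's exact test, adjusted p = 0.604). Olfr323 averaged 11.6% in TSPAN8-high against 9.86% in TSPAN8-low, and Olfr52 14% in TSPAN8-high against 17.8% in TSPAN8-low. The measured cytosines of Olfr52 all lay outside its gene span, and the low ones lay after its end. The only cytosine measured before its start was at 71% in TSPAN8-high (5 of 7 reads) against 100% in TSPAN8-low (6 of 6). Olfr368, inside the weakly methylated chromosome 2 cluster, averaged 16.3% in TSPAN8-high against 19.7% in TSPAN8-low. Olfr282 averaged 20.9% in TSPAN8-high against 15.6% in TSPAN8-low. Just above 20% came Olfr317, at 15.9% in TSPAN8-high against 25.5% in TSPAN8-low, and Olfr750, at 24.7% in TSPAN8-high against 23.2% in TSPAN8-low, whose low promoter is shown above (in pooled reads 30.9% in TSPAN8-high against 33.9% in TSPAN8-low).

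Unmethylated stretches were sought as at least 5 consecutive measured CpGs, with gaps of up to 300 bp, at which every cytosine was below 20% in both libraries. There were 10 in 9 genes, from 87 to 435 bp long, and 7 of them lay wholly within a gene span. The rule was set after levels had been seen, and the stretches are given as a description. Read numbers are summed over the cytosines of a stretch, so a read over several CpGs is counted at each. The upper limits below can therefore be too low. Olfr687 had the densest, 11 CpGs in 110 bp within its span, with 9 of 373 reads methylated in TSPAN8-high against 3 of 225 in TSPAN8-low. Olfr94 had 10 CpGs in 112 bp, with 2 of 117 reads in TSPAN8-high against 0 of 188 in TSPAN8-low, which allows up to 1.60%. The 18 cytosines of this stretch had only 6 or 7 reads each in TSPAN8-high and 10 or 11 in TSPAN8-low. At Olfr1342, 8 CpGs in 211 bp had 3 of 162 reads methylated in TSPAN8-high against 0 of 189 in TSPAN8-low, which allows up to 1.59%. At Olfr658, 6 CpGs beside the gene had 0 of 161 reads in TSPAN8-high (up to 1.86%) against 0 of 142 in TSPAN8-low (up to 2.11%). Olfr1358 had 8 CpGs with 0 of 74 reads in TSPAN8-high (up to 4.05%) against 0 of 113 in TSPAN8-low (up to 2.65%). Its whole window of 44 CpGs averaged 77.2% in TSPAN8-high against 78.2% in TSPAN8-low over cytosines. In pooled reads it was at 84.5% in TSPAN8-high against 78.6% in TSPAN8-low, a difference of 5.89 points (Fisher's exact test, adjusted p = 0.0201), so the direction turned with the weighting. An unmethylated stretch therefore also occurred inside a window that was methylated on average. The stretch of Olfr314 lies in the window of Fam183b as well, and Olfr1344, Olfr1361 and Olfr750 had the others. By the matching rule for levels above 80%, 7 stretches were found in 7 genes, such as 5 CpGs inside Olfr1393 with all of 82 reads methylated in TSPAN8-high and all of 64 in TSPAN8-low.

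**Figure D4:**
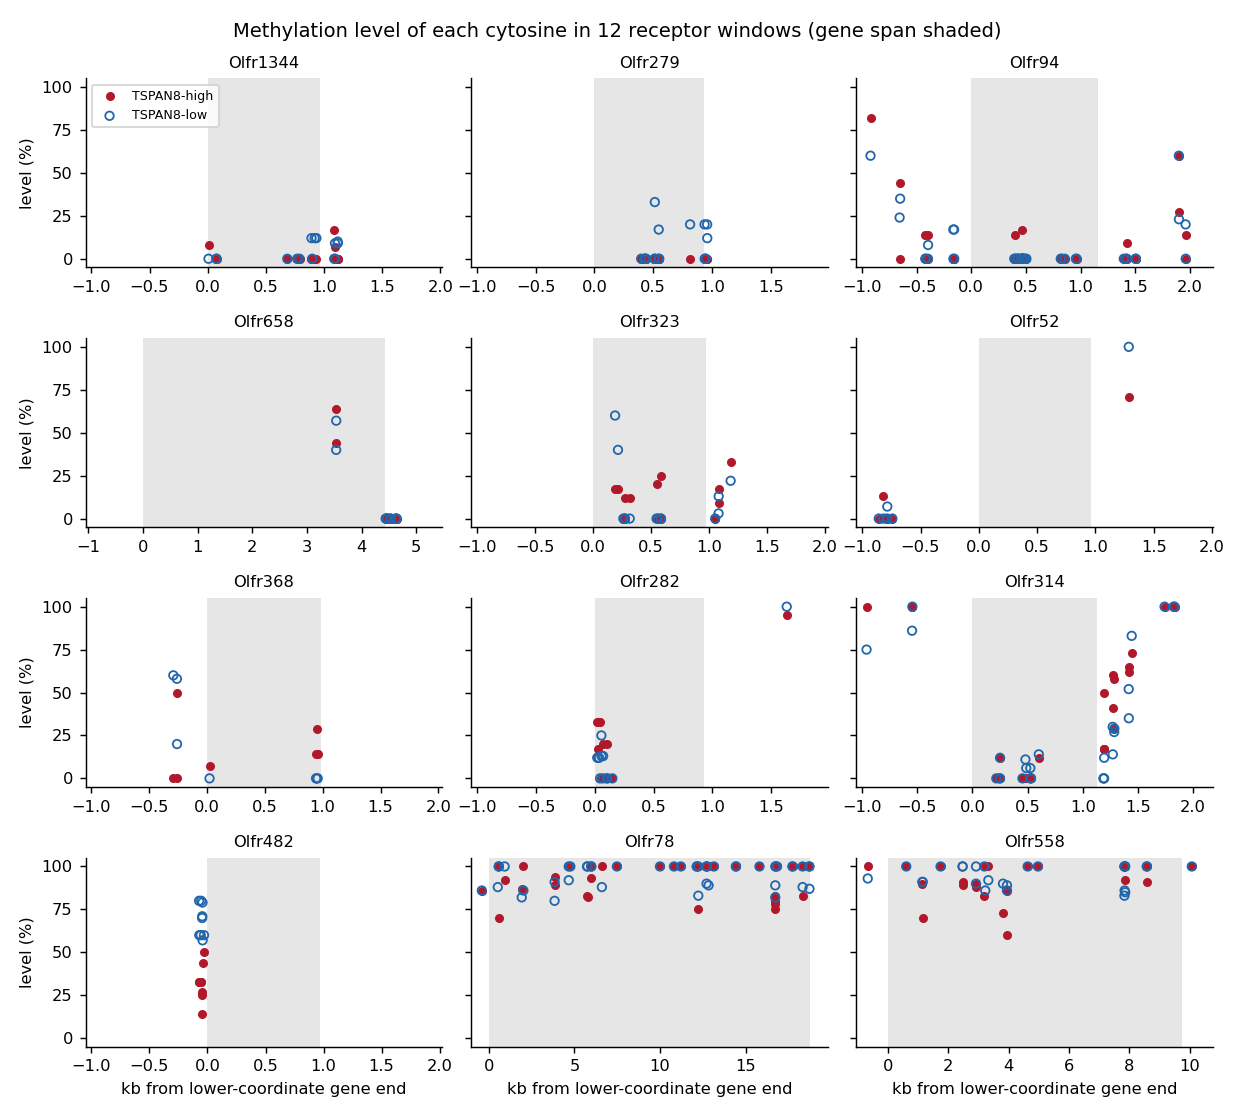
Methylation level (%) of every measured cytosine in 12 receptor windows against distance (kb) from the lower-coordinate end of the gene, with the gene span shaded, for TSPAN8-high (filled red) and TSPAN8-low (open blue). The 8 lowest windows and Olfr314 hold cytosines at or near 0% in both libraries, Olfr482 has every red point below its blue one, and Olfr78 and Olfr558 stay at or above 60%.

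Differences between the fractions in single windows were small for most receptors. The difference, TSPAN8-high minus TSPAN8-low in pooled reads, had a median of -0.18 percentage points, and 95% of windows lay between -12.1 and 14.2. It was positive in 121 windows, negative in 127 and 0 in 2. Across the 250 windows the levels had a Pearson r of 0.969, with libraries and CpGs shared along the genome. By Fisher's exact test with Benjamini-Hochberg adjustment over all 19181 coding windows, 8 receptor windows (3.20%) passed at 0.05 with a gap of 10 or more points, against 1.24% of all windows. At any size of difference 19 receptor windows (7.60%) passed, 8 higher and 11 lower in TSPAN8-high, against 18.2% of all. The 2 shares fall on different sides of their backgrounds. Receptor windows had fewer reads, a median of 243.5 in both libraries together against 3198 in other coding windows, and 8.40% of them differed by at least 10 points, against 1.68% of other windows.

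The largest called difference lay at Olfr482 (chromosome 7, gene at 108094597 to 108095568), whose window overlaps that of Gm4199, a gene not listed as protein-coding. There 32.3% of 65 reads were methylated in TSPAN8-high against 70.6% of 68 reads in TSPAN8-low, a difference of -38.3 points (95% Newcombe interval -52.1 to -21.5, Fisher's exact test, adjusted p = 0.000325). All 9 cytosines were lower in TSPAN8-high, but they lie within 43 bp just after the gene end, so the same reads can cover several of them. Their levels ran from 14% to 50% in TSPAN8-high and from 57% to 80% in TSPAN8-low, without overlap. Olfr482 was the window still called with all read numbers halved (-41.0 points, Fisher's exact test, adjusted p = 0.0496).

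Olfr1199 (chromosome 2) had 65.5% in TSPAN8-high against 89.0% in TSPAN8-low, a difference of -23.6 points in pooled reads (Fisher's exact test, adjusted p = 0.0106) and of -14.8 as a mean over its 6 cytosines. Olfr1459 (chromosome 19) had 54.9% in TSPAN8-high against 68.3% in TSPAN8-low (adjusted p = 0.0256, Fisher's exact test), but as a mean over 22 cytosines its difference was -4.36 points. Only 4 of these 22 cytosines lay in its gene span. Olfr332 (chromosome 11) had 74.5% in TSPAN8-high against 87.7% in TSPAN8-low (adjusted p = 0.0187, Fisher's exact test) and a mean difference of -6.12 points over 17 cytosines. In these 3 windows the pooled difference was over 1.5 times the mean over cytosines, and 12 of 22 cytosines of Olfr1459 and 7 of 17 of Olfr332 were lower in TSPAN8-high.

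Higher in TSPAN8-high were Olfr152 and Olfr1157 on chromosome 2 and Olfr851 and Olfr873 on chromosome 9. Olfr152 had 71.3% in TSPAN8-high against 53.3% in TSPAN8-low, a difference of 18 points (95% interval 6.82 to 28.6, Fisher's exact test, adjusted p = 0.0186), with 6 of 8 cytosines higher. Only 1 of these 8 cytosines lay in the gene span. Olfr873 had 98.5% in TSPAN8-high against 80.8% in TSPAN8-low, a difference of 17.6 points (Fisher's exact test, adjusted p = 0.00738), with 6 of 7 cytosines higher and none lower. All 7 lay in the flanks, outside the gene span. Olfr851 had 59.6% in TSPAN8-high against 42.4% in TSPAN8-low (difference 17.2 points, Fisher's exact test, adjusted p = 0.0273), with 8 of 11 cytosines higher. In its gene span alone the difference was 9.17 points and not called (Fisher's exact test, adjusted p = 0.376). Olfr1157 had 99.0% in TSPAN8-high against 83.8% in TSPAN8-low (15.2 points, Fisher's exact test, adjusted p = 0.00116). However, 6 of its 9 cytosines were equal in the 2 libraries, and the mean difference over cytosines was 8.89 points. At 1 cytosine (position 87965838) 8 of 8 reads were methylated in TSPAN8-high against 4 of 18 in TSPAN8-low. The whole window had 97 of 98 against 93 of 111, so most unmethylated TSPAN8-low reads lay at this cytosine. Olfr851 and Olfr873 belong to the partly methylated cluster on chromosome 9. With 1 CpG kept per 100 bp Olfr1157 and Olfr873 were still called and no lower window was. Olfr851, Olfr152 (then 11.7 points), Olfr332 and Olfr1459 lost the call, with adjusted p from 0.112 to 0.451 (Fisher's exact test), and Olfr482 and Olfr1199 had too few CpGs.

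**Figure D5:**
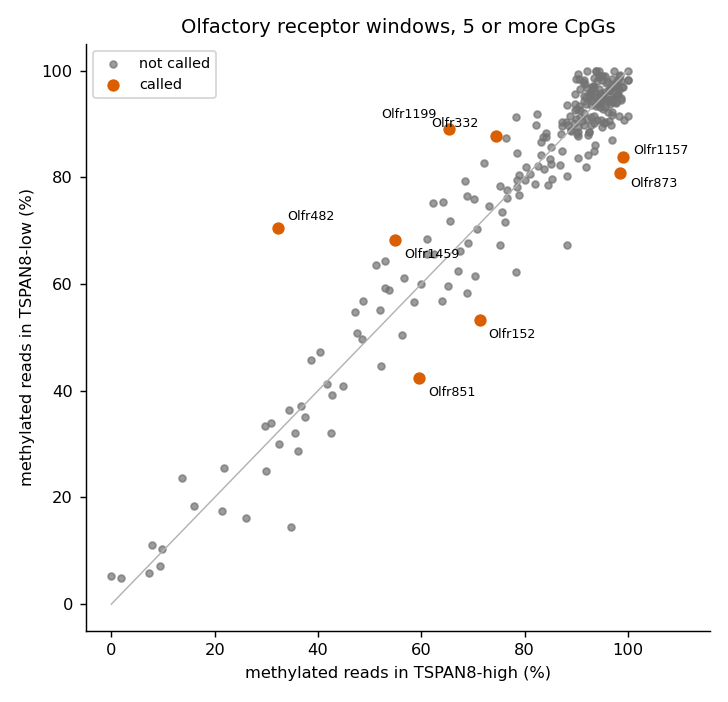
Methylated reads (%) in TSPAN8-high (horizontal axis) against TSPAN8-low (vertical axis) for the 250 receptor windows with 5 or more CpGs; the line marks equal levels, and the 8 called windows are orange. Most windows crowd the upper right corner, and Olfr482 lies farthest from the line.

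No single receptor cytosine was called by Fisher's exact test adjusted over the whole table (0.05, and a gap of 20 or more points), against 0.00111% of all cytosines (75). None passed the adjusted p at any size, and at an unadjusted p below 0.05 there were 143 (2.52%), 71 higher and 72 lower in TSPAN8-high, against 1.47% of all cytosines. The smallest p belonged to a cytosine 639 bp past the end of Olfr545 (chromosome 7, position 102493184), with 6 of 22 reads methylated in TSPAN8-high against 16 of 16 in TSPAN8-low (Fisher's exact test, adjusted p = 0.109). It was called when the adjustment ran over cytosines with at least 10 reads alone (Fisher's exact test, adjusted p = 0.0473), which are fewer.

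The precision of a single CpG was read from its other strand. At 1846 receptor CpGs measured on both strands, the strands of the same library differed by a mean of 9.98 points, and the 2 libraries differed at the same cytosine by a mean of 9.80. Differences between fractions at single CpGs were thus of the same size as those between strands within a fraction. Other coding windows gave 5.74 points between strands and 5.67 between libraries. At 639 receptor CpGs with 10 or more reads the values were 9.12 and 9.19.

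Receptors with known ligands, roles outside the nose or use as model receptors were looked up by name. Olfr16, the testis and sperm receptor MOR23, was methylated, with 43 of 44 reads in TSPAN8-high against 45 of 47 in TSPAN8-low over 5 CpGs. Olfr78, a receptor for short-chain fatty acids found in kidney and carotid body, averaged 94.6% in TSPAN8-high against 95.7% in TSPAN8-low over 32 CpGs. Its neighbour Olfr558 averaged 93.0% in TSPAN8-high against 95.1% in TSPAN8-low over 20 CpGs. Olfr1507 (MOR28), a model of receptor choice, averaged 91.6% in TSPAN8-high against 92.8% in TSPAN8-low over 9 CpGs. These 4 were highly methylated, and none of them passed Fisher's exact test (lowest adjusted p = 0.469).

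Olfr545 was intermediate, at 47.5% in TSPAN8-high against 53.1% in TSPAN8-low over 10 CpGs (Fisher's exact test, adjusted p = 0.445). Fewer than 5 CpGs were measured at the following receptors, which were not tested. Olfr544, a receptor for azelaic acid, averaged 76.6% in TSPAN8-high against 84.4% in TSPAN8-low over 3 CpGs. Olfr17 (P2) averaged 88.3% in TSPAN8-high against 94.3% in TSPAN8-low over 4 CpGs, and Olfr160 (M72) 100% in both over 2. Olfr73 (mOR-EG), a receptor for eugenol, had 1 CpG, with 4 of 28 reads methylated in TSPAN8-high against 8 of 28 in TSPAN8-low, below the others looked up by name. Windows with the most reads were those of the long gene models Olfr687, Olfr287 (86.3% in TSPAN8-high against 88.2% in TSPAN8-low), Olfr1358, described above, Olfr1393 (81.3% in TSPAN8-high against 79.3% in TSPAN8-low) and Olfr183 (71.5% in TSPAN8-high against 69.95% in TSPAN8-low). Olfr687 averaged 66.2% in TSPAN8-high against 66.0% in TSPAN8-low over cytosines, but 56.6% in TSPAN8-high against 61.2% in TSPAN8-low in pooled reads, a difference of -4.61 points (Fisher's exact test, adjusted p = 0.0818).

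Genes of olfactory signalling and receptor choice were set beside the receptors. All 29 listed genes had a tested window, and 1 was called (3.45%, against 1.24% of all coding windows): Cnga2, a subunit of the cyclic nucleotide-gated channel on the X chromosome, was higher in TSPAN8-high (93.4% against 79.2% in TSPAN8-low, Fisher's exact test, adjusted p = 0.00687). At any size 8 passed (27.6%, against 18.2% of all). Differences were positive in 10 and negative in 19, with a median of -0.97 points, while other coding windows had 7816 positive and 11098 negative ones with a median of -0.50. The median level over both libraries was 90.2% in receptor windows, above the 65.7% of these genes. Among the 4 with most reads, Ebf1, a transcription factor gene, had 81.7% in TSPAN8-high against 84.1% in TSPAN8-low, a difference of -2.41 points (Fisher's exact test, adjusted p = 3.66e-08). Ebf3, Pde1c and Ebf2 had 54.8%, 80.9% and 63.8% in TSPAN8-high, against 56.2%, 82.0% and 64.2% in TSPAN8-low. Lhx2, whose factor binds the homeodomain core above, averaged 13.5% in TSPAN8-high against 14.4% in TSPAN8-low, and Omp, the marker of mature olfactory neurons, 99.1% in TSPAN8-high against 97.0% in TSPAN8-low; both were chosen after their values were seen.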

How the data were processed

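Levels were taken from 1 table of cytosines from the 2 RRBS libraries, 1 per fraction, made with BfaI, MseI and MspI per the labels. The methylation level deposited by the authors is a fraction of methylated reads, and the deposited coverage is a read count per cytosine. The authors' deposited difference and p-value columns were not used. The submitters' processing notes name mm10, mm9, Bowtie and SICER with no assay; all 443 receptor cytosines that fell in RefSeq promoter sequences matched a CpG at their mm10 position.

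The number of methylated reads is the level multiplied by the coverage, rounded. Depth summed over all cytosines was 83658949 reads for TSPAN8-high, against 83773700 for TSPAN8-low. Windows with at least 5 CpGs were tested with Fisher's exact test (two-sided, pooled reads), Benjamini-Hochberg adjusted over all protein-coding windows, and single cytosines over the whole table. The tests were checked on simulated data with counts drawn independently. This check could not show errors from counting a read repeatedly. A read over several CpGs is counted at each, and reads carry no molecular identifiers, so p values are too small. Intervals are Newcombe 95% intervals, and a count of 0 allows 3 counts. Both can be too narrow because of the same repeated counting. Named genes were all called windows, the 8 lowest, the 5 with most reads and a list of known receptors and signalling genes. The members and lists were chosen with earlier results of these data known. Python 3.11.15, numpy 2.4.6, pandas 2.3.3 and scipy 1.17.1 were used. An even number of reads covered 61.3% of receptor cytosines in TSPAN8-high, against 60.5% in TSPAN8-low, and halving them was tried because both mates of a read pair may have been counted. Further alternatives covered coverage, flanks, window size, and thinning to 1 CpG per 100 bp.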

Additional observations from a re-analysis of the deposited data

How the results depend on the processing

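No paired analysis was possible because each fraction had 1 library. The difference in mean level kept its sign under every alternative that gave a value, from -0.487 to -0.0469 percentage points. The level in TSPAN8-high was 81.7% at 10 or more reads, 77.7% in gene spans alone, 81.2% without cytosines shared with other coding windows and 83.5% with 1 CpG per 100 bp. In TSPAN8-low it was 82.2% at 10 or more reads, 80.9% at 20 or more, 77.9% in spans, 81.5% without shared cytosines, 83.7% with 1 CpG per 100 bp and 81.5% with reads pooled. The 8 called windows became 3 of 57 at 10 or more reads, 0 of 4 at 20 or more, 2 of 97 in spans alone, 2 of 174 with 1 CpG per 100 bp and 1 of 250 with read numbers halved. They became 19 with no minimum difference, 13 of 536 with windows of 3 or more CpGs and 2 of 60 with 10 or more. Stricter minimums also leave fewer windows to test. The 3 windows at 10 or more reads were Olfr18, Olfr222 and Olfr332. Of single cytosines 1 was called at 10 or more reads (Olfr545) and 1 at 20 or more (Olfr633), both lower in TSPAN8-high, where 2213 and 341 receptor cytosines were tested. Over the alternatives, differences of the named windows kept sign and stayed called or not called in 119 values. They lost the call in 13 and changed sign in 10, all 10 at windows that were not called. These were Olfr1507 with reads halved (2.25), Olfr183 (-1.71), Olfr687 (2.23), Olfr323 (-3.48) and Olfr78 (0.89) with 1 CpG per 100 bp, Olfr282 (-1.28) and Olfr323 (-0.039) in spans, Olfr323 with reads halved (-0.53), Olfr287 at 20 or more reads (3.29) and Olfr78 at 10 or more (0.59); the cause was not tested. A call also needs 10 points, so the 119 include windows never called whose adjusted p crossed 0.05. Olfr1358 rose above it at 10 or 20 reads, with thinning and with reads halved (0.203 to 0.848, Fisher's exact test). Olfr279 did so in spans, with thinning and with reads halved (0.0941 to 0.628, Fisher's exact test). The alternatives for the chromosome 9 and chromosome 2 clusters were chosen after seeing the data, and on the plus and minus strand alone they gave 54.3% to 68.9%. Most receptors had under 5 measured CpGs. Olfr332 also lost its call in spans alone (Fisher's exact test, adjusted p = 0.191).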
